A study of Mus musculus with 6 samples.

Results

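Müller glia are the radial glial cells of the retina. They span its whole thickness, carry water and potassium away from active neurons, buffer pH and carbon dioxide, recycle transmitters, and secrete lipoproteins and other proteins into the tissue. The 10 genes described here were given as a list of names grouped by these tasks, drawn up with earlier results of these data known: the water channel Aqp4, the potassium channel Kcnj10, the carbonic anhydrases Car2 and Car14, the secreted proteins Dkk3, Apoe and Clu, the lipid transporter Abca8a, and the transcription factors Sox9 and Hes1. All 10 were found among the 55376 genes of the deposited table, and all 10 were among the 18547 that passed the filter on low counts and were tested.

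On mm10 (GENCODE M21, gene bounds), Aqp4 (ENSMUSG00000024411.10) lies at chr18:15389496-15410982 on the minus strand, Kcnj10 (ENSMUSG00000044708.5) lies at chr1:172341210-172374085 on the plus strand, Car2 (ENSMUSG00000027562.12) lies at chr3:14886273-14900770 on the plus strand, Car14 (ENSMUSG00000038526.14) lies at chr3:95897768-95904691 on the minus strand. Dkk3 (ENSMUSG00000030772.6) lies at chr7:112116017-112159057 on the minus strand, Apoe (ENSMUSG00000002985.16) lies at chr7:19696109-19699188 on the minus strand, Clu (ENSMUSG00000022037.15) lies at chr14:65968483-65981547 on the plus strand. Abca8a (ENSMUSG00000041828.15) lies at chr11:110025634-110095978 on the minus strand, Sox9 (ENSMUSG00000000567.5) lies at chr11:112782224-112787760 on the plus strand and Hes1 (ENSMUSG00000022528.8) lies at chr16:30064384-30067796 on the plus strand.

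RNA-seq was performed at an age of 240 days on whole retinas from 2 genotypes, 3 mice that were WT and 3 that were Wfs1-KO (Wfs1-/-, from a targeted deletion of exon 8 of Wfs1, not limited to a cell type). The sample labels give the strain of both genotypes as C57x129, whereas the study's methods give a C57BL/6J background. Replicate numbers mark different mice. Glia were not isolated, so in whole retina fewer Müller cells and less RNA per cell cannot be told apart. Levels are given as CPM, the counts scaled to a common library size by the TMM method. Log2 fold changes are Wfs1-KO over WT from edgeR's quasi-likelihood test, with p-values adjusted over all 18547 genes by the Benjamini-Hochberg method. They are followed by ± a standard error, computed here as the absolute log2 fold change divided by the square root of the test's F statistic.

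The libraries held between 17916885 and 101334381 counts. The targeted gene Wfs1 had 61.4 to 69.9 CPM in WT and 0.900 to 11.5 CPM in Wfs1-KO retinas. Its log2 fold change of -3.15 ± 0.77 did not pass over all 6 retinas (edgeR, adjusted p = 0.979) and was -2.64 ± 0.16 without Wfs1-KO replicate 2 (edgeR, adjusted p = 2.84e-05), while DESeq2 called it over all 6 retinas, at -3.17 (adjusted p = 0.000913). The 12 listed photoreceptor markers summed to 52172 to 74533 CPM. Wfs1-KO replicate 2 stood apart, with a mean Pearson correlation of log2 CPM to the other libraries of 0.918, against 0.962 to 0.971 for each of the other 5, so each fold change below is also given without it. WT replicate 3 was the only library with little Xist (4 counts, against at least 10583) and with Ddx3y (1137 counts, against at most 2), and thus differed from the rest in sex.

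None of the 10 Müller glia genes differed between genotypes at an adjusted p of 0.05, where 0.0108% of all tested genes passed. The members' adjusted p-values lay between 0.979 and 0.985 in edgeR's test, and 0 of 10 had an unadjusted p under 0.05, against 2.81% of all tested genes. DESeq2 also called 0 of 10, with 0 at an unadjusted p under 0.05. Their median log2 fold change was 0.06, where all tested genes had a median of 0.02. Without Wfs1-KO replicate 2 the median was -0.06, again 0 of 10 passed (0.125% of all tested genes did), and Car14 alone had an unadjusted p under 0.05, which 5.19% of all tested genes had.

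**Figure D1:**
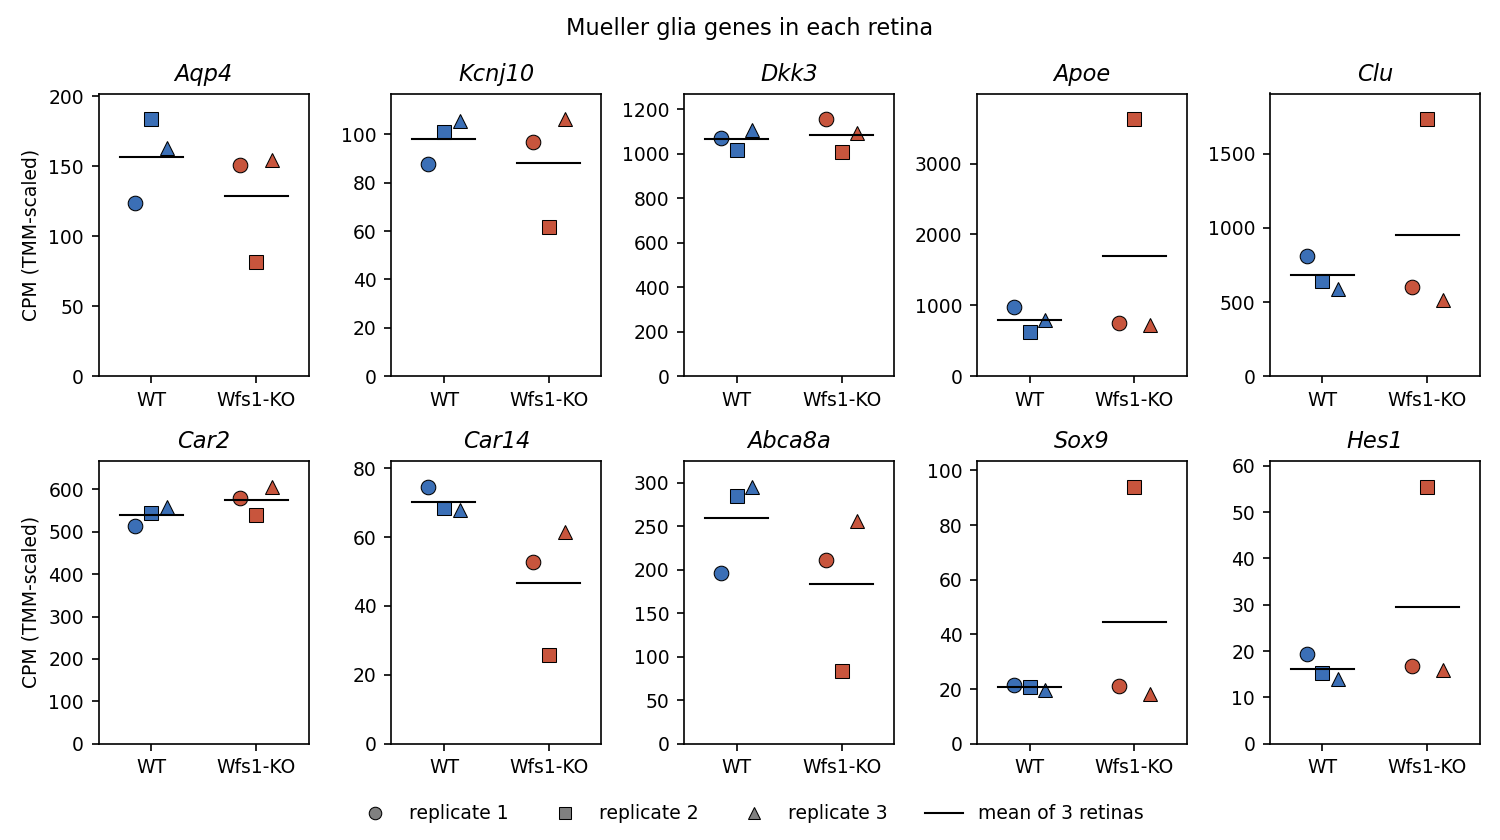
Level of each of the 10 genes in CPM (TMM-scaled) on the y axis, with WT and Wfs1-KO on the x axis. Each symbol is 1 retina, its shape gives the replicate number, and the horizontal line is the mean of 3 retinas. Wfs1-KO replicate 2 lies far above the other 5 retinas for Apoe, Clu, Sox9 and Hes1 and below them for Aqp4, Kcnj10, Car14 and Abca8a.

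What varied most among these genes was 1 mutant retina, and it split them into 3 sets. In Wfs1-KO replicate 2, Apoe, Clu, Sox9 and Hes1 were above all 5 other retinas, by 4.70, 2.74, 4.66 and 3.41 times the mean of those 5. Aqp4, Kcnj10, Car14 and Abca8a were below all 5, at 0.524, 0.620, 0.394 and 0.335 times that mean. Dkk3 and Car2 were close to it, at 0.928 and 0.963 times, Dkk3 just below the other 5 retinas and Car2 among them. This retina was the highest of the 6 for 38.4% of all tested genes and the lowest for 36.8%, so an extreme place in it was common; by the size of its ratio, Apoe lay at percentile 97.3 and Abca8a at percentile 7.01 of all tested genes.

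Carbonic anhydrases interconvert carbon dioxide and bicarbonate, Car2 in the cytosol and Car14 as a membrane enzyme facing the outside of the cell. Car14 was the only member for which the genotypes did not overlap. It had 74.7, 68.6 and 67.8 CPM in WT replicates 1, 2 and 3, and 52.9, 25.6 and 61.5 CPM in Wfs1-KO replicates 1, 2 and 3. All mutant retinas thus lay under all WT retinas, a pattern that 3.94% of all tested genes showed, and the opposite pattern, found in 5.01% of all tested genes, occurred for 0 of the 10. The means were 70.3 ± 3.77 CPM in WT and 46.7 ± 18.7 CPM in Wfs1-KO (SD, n = 3 each), and the log2 fold change was -0.59 ± 0.31 (edgeR, adjusted p = 0.979). Leaving out Wfs1-KO replicate 2 gave -0.31 ± 0.14 (edgeR, adjusted p = 0.957), so the direction did not rest on that retina, and the size of the difference moved by more than 1.5 times. Exons of Car14 share 445 of their 2543 annotated bases with Aph1a on the opposite strand, and the strand setting of the counting is not given in the sources used here. The deposited exon length of Car14 was 1709 bases, and whether the shared bases were among those counted was not checked. Aph1a, a subunit of gamma-secretase, had a log2 fold change of -0.02 ± 0.17 (0.03 ± 0.15 without Wfs1-KO replicate 2), with 22.8 to 27.7 CPM in WT and 22.1 to 26.3 CPM in Wfs1-KO retinas.

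Car2 was among the steadiest of the 10. WT replicates 1, 2 and 3 had 514, 545 and 559 CPM, and the mutant retinas had 579, 540 and 607 CPM, with Wfs1-KO replicate 2 inside the WT range. The log2 fold change was 0.09 ± 0.15, and 0.13 ± 0.12 without that retina. Car2 is also expressed by red blood cells and oligodendrocytes. Globin genes were high in Wfs1-KO replicate 2, as given below, while Car2 in that retina was 0.963 times the mean of the others.

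Aqp4, the water channel of glial endfeet, had 124, 184 and 163 CPM in WT replicates 1, 2 and 3. In Wfs1-KO replicates 1, 2 and 3 it had 151, 81.4 and 155 CPM. Mutant replicates 1 and 3 thus sat inside the WT range and replicate 2 below it. Over all 6 retinas its log2 fold change was -0.28 ± 0.29, and -0.04 ± 0.17 without replicate 2.

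Kcnj10, the inwardly rectifying channel through which Müller glia take up and release potassium, was low in the same 2 retinas as Aqp4. It had 87.8, 100.9 and 106 CPM in WT, and 97.0, 61.7 and 106 CPM in Wfs1-KO retinas. The genotypes overlapped, with the lowest level in Wfs1-KO replicate 2 and the next lowest in WT replicate 1, as for Aqp4. For Kcnj10 the log2 fold change was -0.15 ± 0.23 and turned to 0.05 ± 0.14 without Wfs1-KO replicate 2.

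Abca8a, a member of the ABC family of lipid transporters, was the lowest of the 4 relative to the other retinas in Wfs1-KO replicate 2. It had 197, 284 and 295 CPM in WT and 211, 83.3 and 256 CPM in Wfs1-KO retinas. WT replicate 1 was again the lowest retina after Wfs1-KO replicate 2. The log2 fold change was -0.49 ± 0.40, and -0.15 ± 0.18 without that retina. Reads of Abca8a could be shared with its neighbouring paralog Abca8b, which had 29.3 to 48.0 CPM in WT and 25.1 to 45.9 CPM in Wfs1-KO retinas and a log2 fold change of 0.06 ± 0.30 (0.28 ± 0.19 without Wfs1-KO replicate 2).

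Among the secreted proteins, Apoe, the main carrier of cholesterol in lipoproteins made by glia, differed most between retinas. It had 972, 617 and 796 CPM in WT and 751, 3627 and 724 CPM in Wfs1-KO retinas. Mutant replicates 1 and 3 were inside the WT range. The log2 fold change of 1.097 ± 0.63 became -0.11 ± 0.17 without Wfs1-KO replicate 2, so its sign was set by that retina.

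Clu, or clusterin, an extracellular chaperone and apolipoprotein, followed Apoe. It had 813, 639 and 587 CPM in WT and 604, 1733 and 514 CPM in Wfs1-KO retinas. The genotypes overlapped. Its log2 fold change was 0.48 ± 0.46, and -0.29 ± 0.16 (edgeR, adjusted p = 0.966) without Wfs1-KO replicate 2, when 1 mutant retina was below and the other inside the WT range.

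Dkk3, a secreted protein of the Dickkopf family, whose founding members block Wnt receptors, was the other steady gene. It had 1071, 1016 and 1108 CPM in WT and 1155, 1010 and 1093 CPM in Wfs1-KO retinas. The genotypes overlapped, and Wfs1-KO replicate 2 was the lowest of the 6 retinas by a narrow margin. Genotypes differed by a log2 fold change of 0.03 ± 0.15, and 0.07 ± 0.11 without Wfs1-KO replicate 2.

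Sox9, a transcription factor that keeps glial identity, had 21.5, 20.6 and 19.5 CPM in WT and 21.0, 94.0 and 18.3 CPM in Wfs1-KO retinas. The 5 retinas other than Wfs1-KO replicate 2 spanned only 18.3 to 21.5 CPM. Its log2 fold change of 1.11 ± 0.61 became -0.07 ± 0.15 without it. Hes1, a repressor that acts downstream of Notch, had 19.4, 15.3 and 13.9 CPM in WT and 16.8, 55.5 and 15.9 CPM in Wfs1-KO retinas. For Hes1 the other 2 mutant retinas were inside the WT range, whereas for Sox9 Wfs1-KO replicate 3 was below it. The log2 fold change of Hes1 was 0.86 ± 0.49, and 0.00342 ± 0.18 without Wfs1-KO replicate 2.

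**Figure D2:**
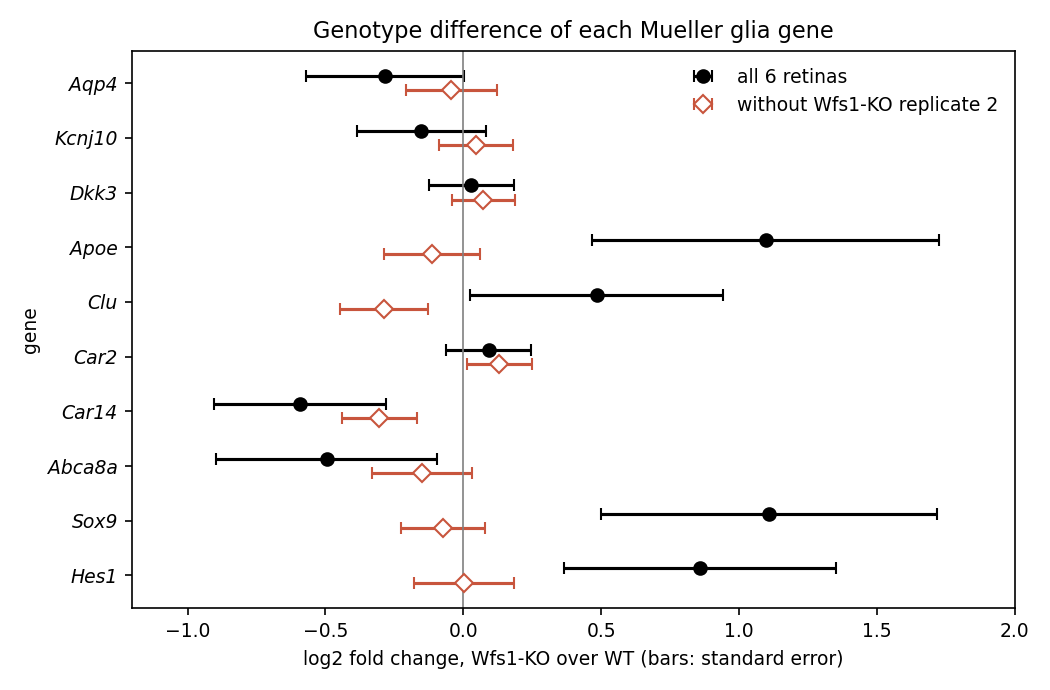
Log2 fold change of each gene, Wfs1-KO over WT, on the x axis, with genes on the y axis and bars of 1 standard error. Filled circles use all 6 retinas and open diamonds leave out Wfs1-KO replicate 2, without which every value lies between -0.31 (Car14) and 0.13 (Car2).

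The promoters of the members that moved together in Wfs1-KO replicate 2 are shown for the genes that RefSeq's start sites on GRCm38.p6 (mm10) gave, 4 of the 10. Kcnj10, Car14 and Abca8a were low in that retina and Apoe was high. Each window runs 5′ to 3′ on the gene's strand, from 250 bases before the start to 50 bases after it, and for Apoe the most upstream of 3 listed starts was used. Kcnj10 is on the plus strand at chr1:172340960-172341259, Car14 on the minus strand at chr3:95904636-95904935, Abca8a on the minus strand at chr11:110095888-110096187 and Apoe on the minus strand at chr7:19699139-19699438. Capitals mark matches, on either strand, to letters read by members of the Hes and SOX families, to which Hes1 and Sox9 belong, and by RBPJ, which is not a member: the N box CACNAG of Hes proteins, the site TGGGAA of the Notch effector RBPJ, and the SOX-type sites ACAATG and ACAAAG.
Kcnj10: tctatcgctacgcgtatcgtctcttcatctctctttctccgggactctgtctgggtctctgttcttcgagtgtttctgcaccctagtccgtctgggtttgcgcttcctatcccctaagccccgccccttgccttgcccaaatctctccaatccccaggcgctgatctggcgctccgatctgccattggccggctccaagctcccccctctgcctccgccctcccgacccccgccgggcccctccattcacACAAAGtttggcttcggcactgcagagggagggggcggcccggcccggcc
Car14: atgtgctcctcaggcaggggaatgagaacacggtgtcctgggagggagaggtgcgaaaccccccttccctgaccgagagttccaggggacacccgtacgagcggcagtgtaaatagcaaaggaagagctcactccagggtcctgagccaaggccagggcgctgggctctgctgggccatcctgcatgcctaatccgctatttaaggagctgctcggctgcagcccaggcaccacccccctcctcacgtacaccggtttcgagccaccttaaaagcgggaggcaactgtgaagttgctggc
Abca8a: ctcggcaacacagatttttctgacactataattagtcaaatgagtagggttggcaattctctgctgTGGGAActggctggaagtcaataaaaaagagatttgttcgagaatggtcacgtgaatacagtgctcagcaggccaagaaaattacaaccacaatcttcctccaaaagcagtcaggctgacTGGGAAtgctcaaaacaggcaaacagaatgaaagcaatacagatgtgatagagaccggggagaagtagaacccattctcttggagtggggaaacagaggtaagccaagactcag
Apoe: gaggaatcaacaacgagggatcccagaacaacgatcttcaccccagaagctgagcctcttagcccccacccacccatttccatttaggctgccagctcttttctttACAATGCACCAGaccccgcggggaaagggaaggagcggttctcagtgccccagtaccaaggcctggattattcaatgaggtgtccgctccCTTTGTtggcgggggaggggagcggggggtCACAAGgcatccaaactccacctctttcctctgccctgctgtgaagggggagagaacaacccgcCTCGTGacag

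Counted from the first base of each window, Kcnj10 held ACAAAG at bases 251 to 256. Abca8a held TGGGAA at bases 67 to 72 and 187 to 192. Apoe held ACAATG at bases 107 to 112, directly before an N box at bases 113 to 118, further N boxes at bases 227 to 232 and, on the other strand, 291 to 296, and ACAAAG on the other strand at bases 197 to 202. Car14 held none of these letters. Of 32851 promoter windows of the same length, 42.5% held CACNAG, 25.6% TGGGAA, 12.6% ACAATG and 18.7% ACAAAG on either strand, so such matches are common, and they are descriptions of the letters only.

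Per base of exon, the 10 genes formed a high and a low tier. With CPM divided by exon length (RPKM on the TMM scale), medians over the 6 retinas were 421 for Apoe, 343 for Clu, 322 for Dkk3 and 309 for Car2. They were 40.8 for Abca8a, 37.8 for Car14, 25.9 for Aqp4, 18.3 for Kcnj10, 11.2 for Hes1 and 5.03 for Sox9. In WT retinas the 4 abundant genes ranked 60, 76, 102 and 113 among the 18547 tested genes, while Sox9 ranked 8920. Between neighbours in this order, the ranges over the 6 retinas separated only Car2 from Abca8a. Without Wfs1-KO replicate 2 the ranges also separated Aqp4 from Kcnj10, Kcnj10 from Hes1 and Hes1 from Sox9. The summed CPM of the 10 genes was 3491 to 3894 in 5 retinas and 7312 in Wfs1-KO replicate 2. In that retina Apoe had 3627 and Clu 1733 CPM, and 4 of the 10 genes were the highest of the 6 retinas and 5 the lowest. The sum of 20 other listed Müller glia markers, described below, was 5234 CPM there, inside the 4242 to 5312 CPM of the other 5 retinas.

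The 2 tiers and the split in Wfs1-KO replicate 2 did not coincide, but a smaller split of the same kind was present within WT, and it was looked for after the values were seen. In WT replicate 1, Aqp4, Kcnj10 and Abca8a were the lowest of the 3 WT retinas, and Apoe, Clu, Sox9 and Hes1 were the highest. Relative to its 2 WT group mates, WT replicate 1 differed by -0.48, -0.23 and -0.56 on the log2 scale for the first 3, and by 0.47, 0.41, 0.10 and 0.41 for the other 4. In Wfs1-KO replicate 2, relative to its own group mates, the differences were -0.91, -0.72 and -1.48, and 2.30, 1.64, 2.26 and 1.76. Having Wfs1-KO replicate 2 lowest and WT replicate 1 second lowest held for these 3 members and for 17.2% of all tested genes. The mirror image, highest and second highest, held for these 4 members and for 16.2%. Car14 was the exception, with -1.15 in Wfs1-KO replicate 2 and 0.13 in WT replicate 1.

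**Figure D3:**
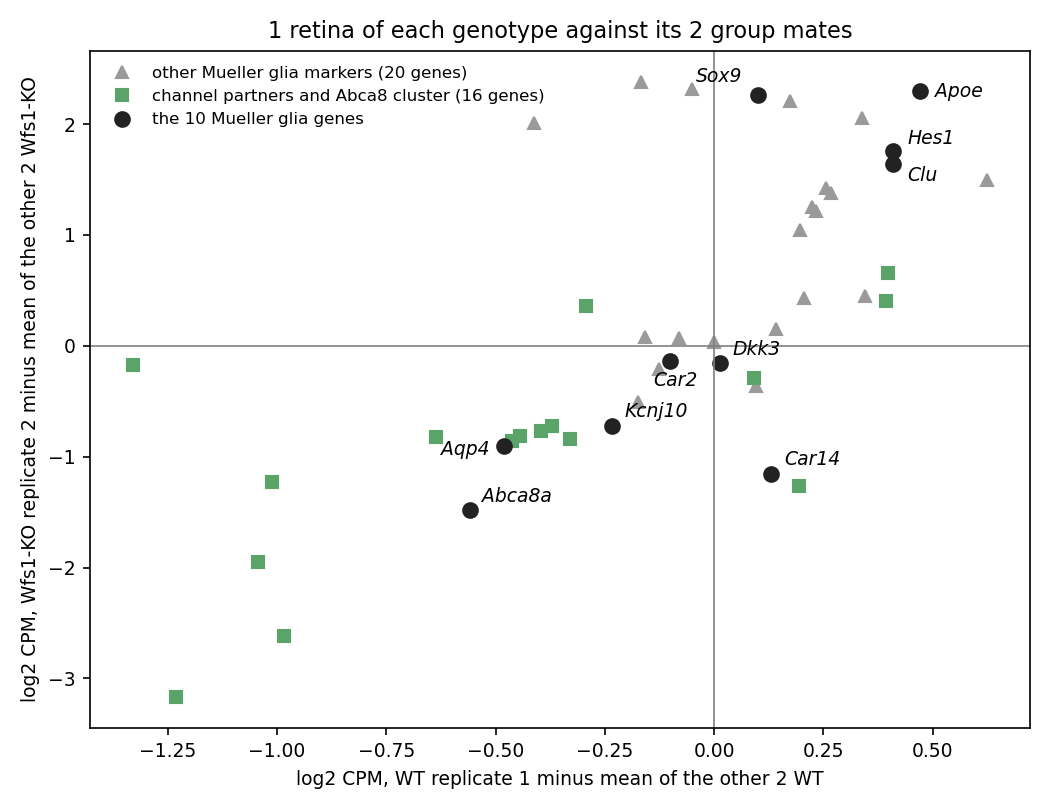
Log2 CPM of WT replicate 1 minus the mean of the other 2 WT retinas (x axis) against log2 CPM of Wfs1-KO replicate 2 minus the mean of the other 2 Wfs1-KO retinas (y axis), 1 point per gene: black circles are the 10 genes, grey triangles the other Müller glia markers, and green squares the channel partners and Abca8 cluster genes. Aqp4, Kcnj10 and Abca8a lie at the lower left, Apoe, Clu, Sox9 and Hes1 at the upper right, and Car14 at the lower right, with -1.15 on the y axis.

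Exon length moved with this split. Over all 18547 tested genes, Spearman's rho between exon length and the difference of Wfs1-KO replicate 2 from its group mates was -0.41, and for WT replicate 1 it was also -0.41, so longer genes tended to be lower in both libraries. The genes are not independent of each other, and these are descriptions. The exons of Aqp4, Kcnj10 and Abca8a sum to 5905, 5407 and 5734 bases, those of Apoe, Clu and Hes1 to 1838, 1810 and 1468, and the median over tested genes was 2972. Car14, with 1709 bases, was low in Wfs1-KO replicate 2 although short, and Sox9, with 4135 bases, was high although longer than the median. The part of exon length in the members' levels was not tested.

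The partners of each member were read from lists of related genes, 7 in all. At endfeet, Aqp4 and Kcnj10 are held in place by the dystrophin complex. Of 12 listed partners and related channels, 12 were tested, 0 passed and 0 had an unadjusted p under 0.05, with a median log2 fold change of -0.07, and 0.10 without Wfs1-KO replicate 2. Aqp1, another water channel, had the highest level per exon base of this list (85.1 RPKM) and a log2 fold change of 0.11 ± 0.18 (0.20 ± 0.13 without Wfs1-KO replicate 2). Dmd (dystrophin), named after its values were seen, had 68.9, 146 and 138 CPM in WT and 137, 38.4 and 161 CPM in Wfs1-KO retinas, low in the same 2 libraries as Aqp4 and Kcnj10, as were Utrn, Dag1, Dtna, Sntb1 and Kcnj2.

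The 22 other carbonic anhydrases and bicarbonate transporters gave 16 tested genes, of which 0 passed and 0 had an unadjusted p under 0.05. Their median log2 fold change was -0.05, and 0.02 without Wfs1-KO replicate 2. Car8, a family member without catalytic activity, was the most abundant per exon base (26.6 RPKM), with a log2 fold change of -0.11 ± 0.23 (0.07 ± 0.15 without Wfs1-KO replicate 2). Of the 16, 0 had every mutant retina below every WT retina, as Car14 had, a pattern of only 3.94% of all tested genes. The opposite pattern, found in 5.01% of all tested genes, also occurred for 0.

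Genes listed for apolipoprotein receptors and lipid export, among them nuclear receptors and other apolipoproteins, showed no called change either. All 17 listed genes were tested, 0 passed and 0 had an unadjusted p under 0.05, and the median log2 fold change was -0.02, or 0.04 without Wfs1-KO replicate 2. Nr1h2, a sterol-sensing nuclear receptor, had the highest level per exon base (37.3 RPKM) and a log2 fold change of -0.06 ± 0.22 (0.06 ± 0.17 without Wfs1-KO replicate 2). Wfs1-KO replicate 2 had the lowest level of the 6 retinas for 9 of the 17, against 36.8% of all tested genes. The 4 other Abca5-to-Abca9 cluster genes were all lowest in that retina and second lowest in WT replicate 1, like Abca8a, with a median log2 fold change of -0.06, and 0.30 without that retina; Abca5 was the most abundant per exon base (7.97 RPKM), with a log2 fold change of -0.09 ± 0.40 (0.22 ± 0.25 without Wfs1-KO replicate 2). None of these 4 passed or had an unadjusted p under 0.05.

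For Dkk3, 10 of 13 listed Dickkopf family members and Wnt pathway genes were tested, and 0 passed or had an unadjusted p under 0.05. Their median log2 fold change was 0.15, and 0.11 without Wfs1-KO replicate 2. Kremen1, a receptor for Dickkopf proteins, had the highest level per exon base (11.5 RPKM) and a log2 fold change of 0.16 ± 0.19 (0.28 ± 0.13 without Wfs1-KO replicate 2).

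In the Notch pathway, in which Hes1 acts downstream, 20 of 20 listed genes were tested and 0 passed. The median log2 fold change was -0.04, and 0.01 without Wfs1-KO replicate 2. Rbpj, the DNA-binding effector of Notch, was the 1 gene with an unadjusted p under 0.05. It had 30.5, 39.5 and 41.7 CPM in WT and 30.4, 23.2 and 21.8 CPM in Wfs1-KO retinas, so that no mutant retina reached a WT level, by a margin of less than 1 CPM. Its log2 fold change was -0.57 ± 0.21 (edgeR, adjusted p = 0.979), and -0.51 ± 0.19 without Wfs1-KO replicate 2. Every mutant retina was below every WT retina for 1 of the 20, against 3.94% of all tested genes. The opposite held for 1, against 5.01%. Rfng, an enzyme that modifies Notch, was the most abundant per exon base (22.2 RPKM), with a log2 fold change of -0.08 ± 0.22 (-0.13 ± 0.20 without Wfs1-KO replicate 2). Notch1, named after its values were seen, had 14.5 to 26.2 CPM in WT and 28.6, 2.08 and 24.4 CPM in Wfs1-KO replicates 1, 2 and 3, lowest in the retina where Hes1 was highest.

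Other markers of Müller glia were present in every retina, and 20 of 20 listed genes were tested. None passed, 1 had an unadjusted p under 0.05 with a higher level in Wfs1-KO retinas and 1 with a lower level. The median log2 fold change was 0.24, and -0.04 without Wfs1-KO replicate 2. The higher one was Crym, a thyroid hormone-binding protein, with 42.0 ± 4.24 CPM in WT and 84.2 ± 44.9 CPM in Wfs1-KO (SD, n = 3 each) and a log2 fold change of 1.00 ± 0.35 (edgeR, adjusted p = 0.979), or 0.47 ± 0.14 without that retina. The lower one was Glul, glutamine synthetase and the most abundant of the list per exon base (809 RPKM). It had 3245, 2967 and 3112 CPM in WT and 2325, 1949 and 2683 CPM in Wfs1-KO retinas, so that, as for Car14, the genotypes did not overlap. Its log2 fold change was -0.42 ± 0.18 (edgeR, adjusted p = 0.979), and -0.32 ± 0.11 without Wfs1-KO replicate 2 (edgeR, adjusted p = 0.792). Every mutant retina was below every WT retina for 1 of the 20, against 3.94% of all tested genes. Every mutant retina was above every WT retina for 3, Crym among them, against 5.01%. In Wfs1-KO replicate 2, 15 of the 20 were highest and 3 lowest of the 6 retinas, against 38.4% and 36.8% of all tested genes. Rlbp1 and Slc1a3, a retinoid-binding protein and a glutamate transporter both held to define these cells, had log2 fold changes of -0.05 ± 0.19 and -0.06 ± 0.15, and of -0.21 ± 0.13 and -0.09 ± 0.13 without that retina.

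Markers of other cells also moved in Wfs1-KO replicate 2, some of which express members of the list, as macrophages and astrocytes do Apoe and pigment epithelium does Car14. The counts of highest markers below stand beside 38.4% of all tested genes that were highest in that retina. Of 12 microglia and macrophage markers, 11 were highest in that retina, with a summed 371 CPM against 50.02 to 76.6 CPM in the other 5. Of 12 pigment epithelium markers, 8 were highest there, with 417 CPM against 41.9 to 127 CPM. Most of that sum was Ttr (234 CPM) and Dct (92.8 CPM), whereas Rpe65, Lrat, Best1 and Stra6 were not highest there. These genes were named after their values were seen. Of 7 blood markers, 5 were highest, with 480 CPM against 12.3 to 41.4 CPM. Of 7 astrocyte markers, 6 were highest, with 456 CPM against 290 to 403 CPM. The differences were smaller for other cells: 405.6 CPM against 287 to 379 CPM for 11 endothelial and pericyte markers and 56.8 CPM against 41.3 to 50.5 CPM for 8 myelin markers, while 10 lens markers had 3.08 CPM against 1.56 to 3.45 CPM. No listed marker of these 7 cell types was at 0 in all 6 retinas. The part of these cells in the levels of Apoe, Clu, Sox9 and Hes1 was not tested.

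Without that retina, summed marker levels overlapped between genotypes for macrophages, blood, astrocytes, endothelium and myelin. Most of the astrocyte sum was Slc1a2, with 233 to 351 CPM, and Gfap, an intermediate filament of astrocytes and reactive Müller glia, did not overlap, with 11.2 to 19.2 CPM in WT and 47.5 and 21.2 CPM in Wfs1-KO replicates 1 and 3. Sums did not overlap for photoreceptors (66836 to 74533 CPM in WT, 66188 and 66631 CPM in Wfs1-KO), lens (1.56 to 2.38 CPM in WT, 2.54 and 3.45 CPM in Wfs1-KO) and pigment epithelium (89.0 to 127 CPM in WT, 72.0 and 41.9 CPM in Wfs1-KO). The photoreceptor margin was narrow. Lens counts were few. Cryaa, named after its values were seen, had 5, 13 and 6 counts in WT and 90 and 13 in Wfs1-KO replicates 1 and 3. With so few retinas left, full separation is easily reached. Its share over all tested genes was not computed for this comparison, for these sums or for Gfap. In the fit without Wfs1-KO replicate 2, 7 of 12 pigment epithelium markers and 4 of 12 photoreceptor markers were lower in Wfs1-KO at an unadjusted p under 0.05, against 5.19% of all tested genes in either direction. Among the pigment epithelium markers 1 passed the threshold, Lrat, a retinoid-cycle enzyme named after its values were seen, against 0.125% of all tested genes, and their median log2 fold change was -0.75. The part of pigment epithelium in the lower Car14 of Wfs1-KO replicates 1 and 3 was not tested.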

How the data were processed

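Per the labels and the study's methods, the authors trimmed reads with Trimmomatic, mapped them with STAR to mm10 and made the deposited raw counts per gene with featureCounts on exons, 1 column per retina. The submitters' processing notes list Trimmomatic 0.39, STAR 2.5.3a and featureCounts 1.6.4, and the methods name other versions of the first 2. The deposited exon length of each gene, in bases, was used for levels per exon base. The column names give a letter and a number rather than the sample titles, and columns were matched to genotype and replicate by these. 2 further columns matched no sample's labels and were not used. Here, edgeR 4.0.16 in R 4.3.3 (TMM, filterByExpr, quasi-likelihood test, genotype as the only term) was fitted to all genes, with a threshold of 0.05 on the adjusted p. DESeq2 1.42.0 and limma-voom (limma 3.58.1), other scalings, filters, a replicate block and leaving out each retina were alternatives. Total counts ranged from 17916885 to 101334381, and 3 counts, 0.0291 to 0.170 CPM, were taken as the floor. Scripts were tested on simulated data. The members and lists were chosen with earlier results of these data known. Named were the members, Wfs1, and, from the 7 lists of related genes but not those of other cell types, genes with an unadjusted p under 0.05 (at most 3 per list) and the most abundant gene per exon base. Others are said to be chosen after their values were seen, or are markers, paralogs or overlapping genes of members.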

Additional observations from a re-analysis of the deposited data

How the results depend on the processing

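In all 14 alternatives 0 of 10 members passed the threshold, and of 140 fold changes 130 kept their direction. The number with an unadjusted p under 0.05, 0 of 10 as reported, was 1 with no filter on low counts (Sox9), against 1241 of all 32799 genes. It was 0 to 4 when 1 retina was left out. Without Wfs1-KO replicate 1 it was 2 (Apoe and Sox9), against 805 of 19017 tested genes. Leaving out Wfs1-KO replicate 2 gave 1 (Car14), against 995 of 19178 in edgeR and 1037 of 31686 in DESeq2. Without Wfs1-KO replicate 3 it was 4 (Apoe, Car14, Sox9 and Hes1), against 1003 of 19396. The cause of these differences was not tested. Over the fits leaving out 1 retina, log2 fold changes that reversed ran from -0.31 to 0.046 for Kcnj10, -0.021 to 0.073 for Dkk3, -0.11 to 1.46 for Apoe, -0.29 to 0.78 for Clu and -0.074 to 1.48 for Sox9, reversing without Wfs1-KO replicate 2 except for Dkk3 (without WT replicate 2, -0.0058, or Wfs1-KO replicate 1). Leaving out Wfs1-KO replicate 2 in DESeq2 was added after seeing the data. The order of levels per exon base was the same under both other scalings.

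Deviations of same-numbered retinas from their genotype means correlated at -0.23, -0.11 and 0.08. These means include the outlying Wfs1-KO replicate 2, so the values cannot decide whether the numbers pair the retinas. With a replicate block 0 members passed, 0 had an unadjusted p under 0.05, and log2 fold changes were 0.62 for Apoe, 0.66 for Sox9 and -0.68 for Car14. The count of all genes past the threshold was 2 in edgeR, 1 with the block, 9 with no filter on low counts, 49 in DESeq2 and 24 without Wfs1-KO replicate 2. The members' standard errors, 0.15 to 0.63 on the log2 scale, limit what 3 retinas per genotype could resolve.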
